A study of Drosophila melanogaster with 2 samples.

Results

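Among the chromatin regions listed as peaks and background in a search for sites of the homeodomain protein Buttonless (btn), 2541 are described here. They were far from any protein-coding gene start, overlapped a listed candidate in both replicates and lay below the authors' threshold for accepted peaks. They are called members here. Each is a candidate of the pooled dm6 list that overlapped no peak of the authors' optimal list and overlapped by at least 1 bp a candidate of replicate 2 and one of replicate 3. Its summit lay more than 5000 bp from every protein-coding transcription start site (TSS) and in no coding exon. The authors titled the pooled list as peaks and background, so a candidate on it need not be a site of binding. It held 30000 candidates, of which 27394 overlapped no optimal peak and 6292 of these were distal by the same distances. Members were 40.4% of those 6292 (exact 95% binomial interval 39.2 to 41.6%). A candidate of replicate 2 was overlapped by 66.2% of the 6292 and one of replicate 3 by 66.3%. Whether the share in both differs from what these 2 rates imply was not tested, so it is not a measure of agreement between the replicates. The other 3751 distal regions below the threshold lacked a candidate in 1 or both replicates and are the comparison group. To lack a candidate means only that no region on that replicate's list overlapped. A further 478 distal candidates overlapped an optimal peak.

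The series set out to map the sites of btn in Drosophila melanogaster by chromatin immunoprecipitation and sequencing (ChIP-seq). Whole embryos of mixed sex, 0 to 14 h old, came from a transgenic line in which btn carries green fluorescent protein at its C-terminus, and an antibody against GFP was used on chromatin sheared to 200 to 800 bp. There was 1 group of 2 biological replicates, numbered 2 and 3, and all the embryos came from that 1 tagged line. No untagged line was analysed here, so a region is not shown to be bound by btn, and whole embryos mix all cell types.

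Buttonless was described as a mesodermal homeodomain protein of the dorsal median cells, a few cells along the embryonic midline. Homeodomain proteins bind short sequences with a TAAT core, and in flies much of the regulatory sequence of developmental genes lies in long introns and in the gene-poor stretches around them. A distal region found in chromatin may be an enhancer, an unannotated start site or a place where many proteins are recovered, and a peak list does not tell these apart.

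Sequences of strong members are shown first, since the comparison of the groups turned on their base composition and on short words. Each is the plus strand of the Release 6 genome (RefSeq, dm6 coordinates), with the pooled summit and 75 bases on each side of it, and is named by the gene with the nearest protein-coding TSS. Capitals mark, on either strand, any of the 8 words of 6 bases whose frequency differed between members and regions lacking a candidate, such as TAGATA. A match is a description and not a binding site. All are from outside 1 chromosome arm whose sequence is not printed here, so the regions in dnr1 and Myd88 and those nearest Mos and fj, which are among the 10 strongest members, are left out. The first 6 are the strongest members outside that arm:
CG43402, chr2L:1462294-1462444: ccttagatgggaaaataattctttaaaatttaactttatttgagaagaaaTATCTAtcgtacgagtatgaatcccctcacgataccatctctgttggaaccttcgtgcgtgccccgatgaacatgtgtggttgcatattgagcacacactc
CG6163, chr3L:11350028-11350178: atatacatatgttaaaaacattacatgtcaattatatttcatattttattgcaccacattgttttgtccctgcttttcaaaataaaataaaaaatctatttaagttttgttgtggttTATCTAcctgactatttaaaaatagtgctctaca
CG31275, chr3R:16769528-16769678: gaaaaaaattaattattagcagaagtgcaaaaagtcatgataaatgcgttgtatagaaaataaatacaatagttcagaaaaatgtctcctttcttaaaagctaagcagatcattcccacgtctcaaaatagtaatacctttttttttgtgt
CG11726, chr3L:11380247-11380397: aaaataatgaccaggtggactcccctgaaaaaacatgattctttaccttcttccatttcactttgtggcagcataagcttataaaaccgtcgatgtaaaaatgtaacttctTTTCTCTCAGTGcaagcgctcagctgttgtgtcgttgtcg
CG8312, chr3R:9613335-9613485: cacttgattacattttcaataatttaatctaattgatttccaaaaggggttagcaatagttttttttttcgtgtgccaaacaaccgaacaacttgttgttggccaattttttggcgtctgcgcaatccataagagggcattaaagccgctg
tara, chr3R:16236934-16237084: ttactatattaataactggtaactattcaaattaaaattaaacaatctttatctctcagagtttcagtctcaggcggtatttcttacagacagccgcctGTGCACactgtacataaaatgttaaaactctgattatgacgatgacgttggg
The strongest distal regions outside that arm with no candidate in either replicate are shown for comparison:
tal-1A, chr3R:13799173-13799323: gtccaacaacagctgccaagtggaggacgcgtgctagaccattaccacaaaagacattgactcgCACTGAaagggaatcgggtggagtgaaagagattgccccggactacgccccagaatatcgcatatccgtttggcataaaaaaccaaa
CG44257, chr3R:17270698-17270848: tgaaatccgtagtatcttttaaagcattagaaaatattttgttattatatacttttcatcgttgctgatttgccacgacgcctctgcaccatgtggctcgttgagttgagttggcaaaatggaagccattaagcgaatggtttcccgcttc
Of those, the region near tal-1A had a GC content of 49.7% and the region near CG44257 one of 39.7%. The word CAGGAC separated the groups most and is in none of the sequences above, so a member and a region lacking a candidate follow, picked as the strongest outside that arm that hold it near the summit:
InR, chr3R:21605655-21605805: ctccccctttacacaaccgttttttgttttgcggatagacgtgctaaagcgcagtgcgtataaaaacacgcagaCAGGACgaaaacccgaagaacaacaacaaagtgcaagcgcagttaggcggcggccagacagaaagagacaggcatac
CG33648, chr2L:14508962-14509112: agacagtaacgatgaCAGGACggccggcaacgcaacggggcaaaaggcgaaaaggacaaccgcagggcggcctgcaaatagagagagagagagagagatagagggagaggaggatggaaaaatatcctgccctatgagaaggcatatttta
The first of these lay in an intron of InR, the insulin receptor gene, with a pooled signal of 68.7. The other, near CG33648, had a pooled signal of 37.2.

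Members filled the range of signal directly under the accepted peaks. The signal is the authors' deposited peak value, which has no stated unit and is used only to rank regions within a list, and both it and the replicate overlap chose the members, so the values that follow are a description with no test. Pooled signals of members ran from 19.3 to 70.3 with a median of 32.8. The median was 22.9 in regions lacking a candidate and 90.8 in distal regions overlapping an optimal peak. In replicate 2 the candidates that members overlapped had signals of 10.6 to 51.7, median 16.8, and in replicate 3 of 11.8 to 51.9, median 18.3. The medians of the 2 replicates lay close together, but how the 2 lists were scaled is not stated.

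Overlap with a candidate in both replicates was far more frequent at higher pooled signal. The pooled list was derived from the same 2 replicates, so signal and overlap are not independent and the rise is only described. When the 6292 distal regions below the threshold were cut into 10 equal classes by signal, 10.5% of the weakest class had a candidate in both replicates (interval 8.20 to 13.1%), against 49.6% of the seventh (45.6 to 53.6%) and 96.2% of the strongest (94.4 to 97.5%). The weak end lay at a low but nonzero level and the strong end was nearly complete. Over all pooled candidates below the threshold the share was 46.0%. It was 51.3% (50.5 to 52.2%) for regions within 5000 bp of a TSS outside coding exons and 41.6% (40.5 to 42.7%) for those in coding exons. Median pooled signals were 27.6 and 25.6 in these, against 25.6 in the distal regions below the threshold, and the shares were not compared at equal signal. All 478 distal regions overlapping an optimal peak had a candidate in both replicates. Intervals count regions and do not cover variation between embryos.

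**Figure D1:**
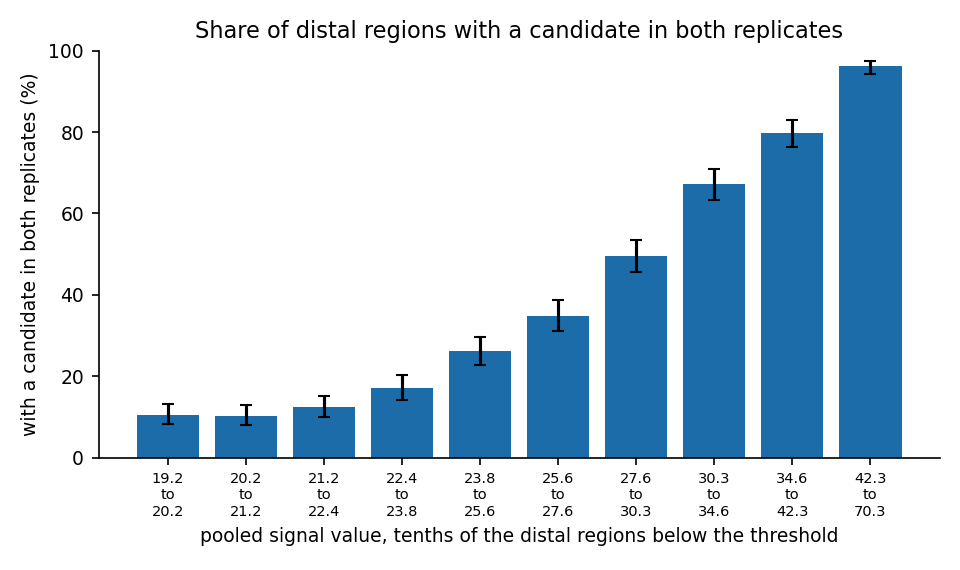
Share of distal regions below the threshold with a candidate in both replicates (y axis, percent), in 10 classes of pooled signal of equal size (x axis, lowest and highest signal of each class); bars are shares and whiskers exact 95% binomial intervals. The share goes from 10.5% in the weakest class to 96.2% in the strongest.

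The regions that lacked a candidate were missing it about as often in one replicate as in the other. Of the 3751, 1627 had a candidate in replicate 2 only, 1629 in replicate 3 only and 495 in neither. Their median signals were 23.3, 23.6 and 20.8.

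Having a candidate in both replicates did not mean ranking high in both. The overlapped candidates of members ranked from 1095 to 29980 in replicate 2, median 10896, and from 1206 to 29999 in replicate 3, median 12276. The rule removes regions that overlap an optimal peak, so counts of members at the top ranks are constrained by it and only describe the group. Only 2 of the 2541 members stood among the strongest 2153 candidates of both replicates, 2153 being the number of optimal peaks, and 126 did so in at least 1. Another 473 members ranked beyond 15000 in both. Across members the 2 replicate signals had a Spearman correlation of 0.330, and across the 478 distal regions overlapping an optimal peak one of 0.566. Both correlations are over regions of the same 2 libraries, with ranges cut by the rule.

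**Figure D2:**
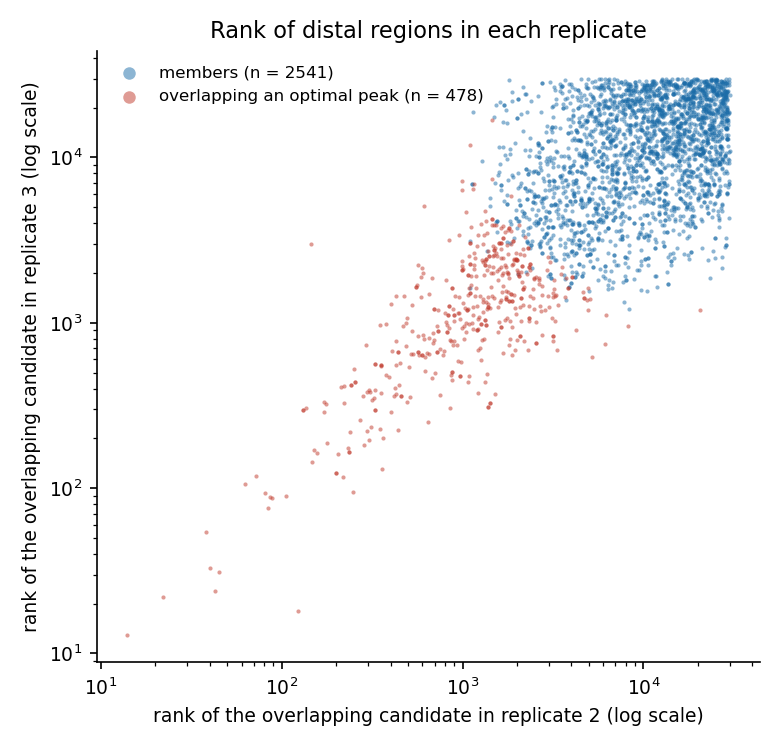
Rank of the overlapping candidate in replicate 2 (x axis, log scale) and in replicate 3 (y axis, log scale), 1 point per region, for 2541 members and 478 distal regions overlapping an optimal peak. Members occupy the weak corner, with median ranks of 10896 and 12276, and spread widely within it.

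The replicate summits taken for a member lay farther apart than those taken for a distal region overlapping an optimal peak. In each replicate the strongest overlapping candidate was taken, so the 2 summits need not belong to the same site. More than 1 candidate of a replicate was overlapped by 655 members and by 190 of the 478 other regions. Replicate summits lay a median of 85 bp apart for members, with 35.2% within 50 bp, and a median of 28.5 bp apart for distal regions overlapping an optimal peak, with 70.9% within 50 bp. Pooled candidates can overlap each other: the 2541 members drew on 2232 distinct candidates of replicate 2 and 2237 of replicate 3, and 582 members (22.9%) shared both of theirs with another member. Keeping the strongest of any overlapping pooled regions left 2213 members.

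The region just inside the authors' threshold and the strongest member differed by little. The 3 weakest distal optimal peaks had pooled signals of 70.5, in an intron of hth, near CG1677 and in an intron of SKIP. The 3 strongest members had signals of 70.3 in dnr1, 70.2 near CG43402 and 70.2 in the 3′ UTR of Myd88. At the distance limit, the nearest members were at 5003 bp from slp2, 5003 bp from Tollo and 5005 bp from noc. The regions just under it that otherwise met the rule were at 4997 bp from Sox102F, 4989 bp from dpy and 4989 bp from ImpL2.

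The 10 strongest members lay on chromosome arms 2L, 2R, 3L and 3R and covered a narrow range of pooled signal, from 70.3 to 69.7. The first lay at chr2R:22587542-22587951 in an intron of dnr1, a ubiquitin ligase gene, with a signal of 33.7 in replicate 2 and 32.5 in replicate 3. The intergenic region near CG43402 had 26.9 and 40.8. The region in Myd88, the adapter of Toll signalling, had 34.1 and 34.0. All 3 lay above the upper quartile of members in each replicate, which was 21.9 in replicate 2 and 24.1 in replicate 3.

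Some of the strongest members were unequal between the replicates. The region near CG6163 had 50.7 in replicate 2 and 23.2 in replicate 3, ranks 1134 and 6941, and lay 360 bp from the annotated start of the noncoding gene lncRNA:CR45251. Another intergenic region on the same arm, near CG11726, had 51.7 and 32.6, the first being the highest replicate 2 signal of any member. The region in an intron of CG8312 had 44.9 and 26.2, and the one in tara, which encodes a regulator of cell fate that interacts with trithorax group genes, had 42.9 and 30.8. These 4 were higher in replicate 2, on lists that were not put on a common scale here.

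Of the remaining 3, the region nearest Mos, inside CG42663, was higher in replicate 3, with 30.0 in replicate 2 and 41.0 in replicate 3. The region near fj, which encodes a Golgi kinase of planar polarity, had 39.1 and 33.0 and lay in an exon of a noncoding RNA. The region whose nearest coding gene was CG31275 had 39.8 and 32.8 and lay 3586 bp from the start of lncRNA:bxd, a noncoding gene of the bithorax complex.

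In the bithorax complex distal regions below the threshold outnumbered optimal peaks, as they did over the whole series (6292 against 2153). This cluster of homeotic genes, which sets the identity of the posterior thorax and abdomen, held 29 members between the start of Ubx and the end of Abd-B (chr3R:16656623-16972236). The same span held 30 distal regions lacking a candidate and 2 optimal peaks, of which 1 was distal. Member signals there had a median of 35.0 and reached 70.1. Within it Ubx held 7 members and MSAmiP, the coding gene annotated between abd-A and Abd-B, held 11, and neither held an optimal peak. The Antennapedia complex, from lab to Antp, is of like length and held 14 members, 26 regions lacking a candidate and 11 optimal peaks. Chromosome arm 3R, which holds both, had 19.8 members per Mb. Both spans were picked after their values had been seen. Neither the difference between them nor that from the rest of the arm was tested.

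Members were mostly intronic or intergenic, in nearly the same shares as the regions lacking a candidate. Introns held 58.9% of members against 59.3% (odds ratio 0.983, interval 0.887 to 1.09), and intergenic sequence held 35.5% against 35.0% (1.02, 0.917 to 1.14). Exons of noncoding genes held 3.86% against 3.60%, and untranslated regions 1.73% against 2.05%. The X chromosome held 14.7% against 13.5% (1.10, 0.951 to 1.28). None of these shares passed Fisher's exact test, two-sided, with Benjamini-Hochberg adjustment over 9 features, and their intervals limit how far they could differ.

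What did differ was base composition. GC content within 100 bp of the summit was 42.3% ± 7.75 (SD, n = 2541 regions) in members, 44.1% ± 7.54 (n = 3751) in regions lacking a candidate and 38.8% ± 6.55 (n = 478) in distal regions overlapping an optimal peak. Regions with a GC content below 43.8%, the median of the distal regions below the threshold, were 55.7% of members and 45.9% of regions lacking a candidate (odds ratio 1.48, interval 1.34 to 1.64; adjusted p = 2.4e-13 by Fisher's exact test). Against distal regions overlapping an optimal peak, of which 78.0% were below that value, the odds ratio was 0.354 (0.279 to 0.448; adjusted p = 5.6e-20 by the same exact test). Members thus lay between the weaker and the stronger regions in base composition.

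**Figure D3:**
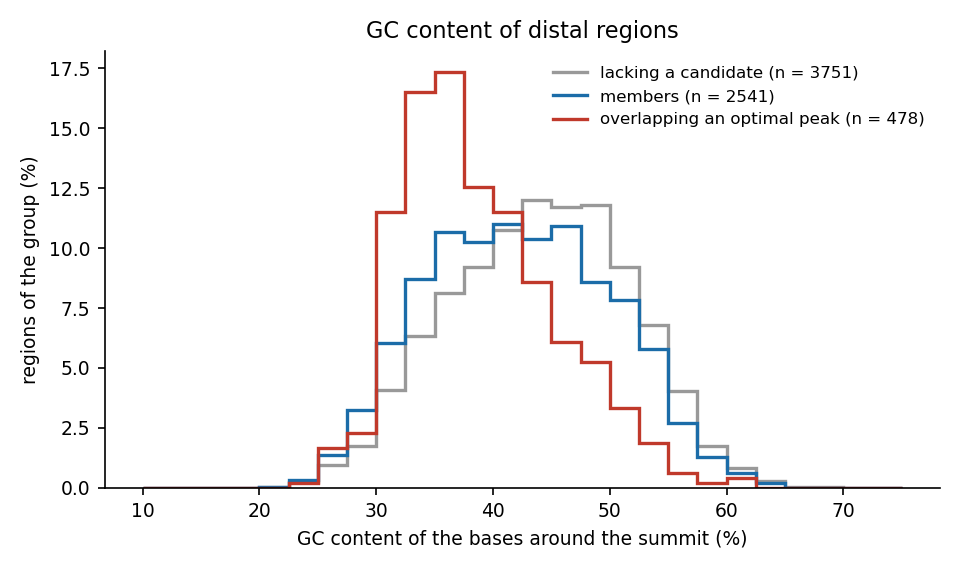
GC content within 100 bp of the summit (x axis, percent) as the share of each group's regions (y axis, percent) in steps of equal width, for 2541 members, 3751 distal regions lacking a candidate and 478 distal regions overlapping an optimal peak. The mean is 42.3% in members, 44.1% in regions lacking a candidate and 38.8% in regions overlapping an optimal peak.

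Repeat-masked sequence was also more frequent in members, by a smaller margin. At least 20% of the window was soft-masked in 36.3% of members and 32.0% of regions lacking a candidate (odds ratio 1.21, 95% interval from 1.09 to 1.35; adjusted p = 0.0019, exact test), and in 38.1% of distal regions overlapping an optimal peak, from which members did not pass the test (0.928, 0.755 to 1.14). Annotated transposable elements held the summit of 12 members (0.472%) and of 31 regions lacking a candidate (0.826%), shares that were not tested. In all, 2 of the 9 features passed against regions lacking a candidate (22.2%) and 1 of 9 against distal regions overlapping an optimal peak (11.1%). Signal differs between the groups by construction. Within 10 classes of pooled signal neither composition feature passed, with odds ratios of 1.11 for low GC content and 1.11 for masked bases and an adjusted p of 0.45 for both by the exact conditional test. Membership defined by replicate 3 alone gave 0 calls, with an odds ratio of 1.14 for low GC content, and by replicate 2 alone 1 call.

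Starts of noncoding genes lay within 500 bp of the summit of 117 members (4.60%) and of 3.63% of regions lacking a candidate (odds ratio 1.28, 95% interval from 0.988 to 1.66; adjusted p = 0.16, exact test), which did not pass the test. By the kind of gene, 94 of the 117 were long noncoding RNAs and 15 were tRNAs. These starts are outside the rule, which counted protein-coding genes only. The strongest such members included the regions near CG6163 and fj above, one in an intron of Tis11 with a pooled signal of 65.2 and one in pnt with 63.0.

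No word known from homeodomain sites passed the test between the groups. TAATTA, the core bound by Antennapedia-class homeodomains, was sought within 100 bp of the summit on either strand. It was in 11.6% of members, 12.8% of regions lacking a candidate and 8.84% of all pooled candidates below the threshold. It was in 10.9% of distal regions overlapping an optimal peak and in 12.6% of all pooled candidates overlapping one. These shares are not adjusted for GC content or distance to a TSS. For members against regions lacking a candidate, the odds ratio of TAATTA within 10 classes of GC content was 0.796 (interval 0.678 to 0.935, exact conditional test, unadjusted p = 0.0050, adjusted p = 0.054). TAATCC, the Bicoid-class core, was in 4.84% and 6.24% (0.732, 0.579 to 0.922, exact test, adjusted p = 0.054). Of the other chosen words with a TAAT core, TAATGA had an odds ratio of 0.915 and ATTAAT one of 1.02. None of these words passed the threshold.

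The GAGA repeat word GAGAGAG, read by the GAGA factor, was in 4.29% of members and 3.20% of regions lacking a candidate (odds ratio 1.50, interval 1.14 to 1.98, exact adjusted p = 0.054). Of the 22 chosen words, 0 passed against regions lacking a candidate (0%), and 3, the ones just named, had an unadjusted p under 0.05. Against distal regions overlapping an optimal peak 0 of 22 passed (0%), and 0 had an unadjusted p under 0.05. The calls sat close to the threshold: 3 words passed when only the main chromosome arms were kept, and TAATTA and GAGAGAG passed when only the strongest of overlapping regions was kept. Other words of the list included the Zelda word CAGGTAG, in 1.06% of members and 1.09% of regions lacking a candidate, and the GATA word AGATAA, in 12.2% and 10.3% (odds ratio 1.09, interval 0.926 to 1.29).

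A search over all words of 6 bases found few that differed beyond GC content. Of 2080 words, with reverse complements merged, 8 passed between members and regions lacking a candidate (0.385%), 4 of them higher in members (0.192%) and 4 lower (0.192%), by the exact conditional test within 10 classes of GC content with adjustment over all 2080. CAGGAC had the lowest odds ratio of the 8. It was in 107 members (4.21%) and in 334 regions lacking a candidate (8.90%), an odds ratio of 0.510 (interval 0.402 to 0.643, exact test, adjusted p = 4.4e-06). The share was 9.10% in regions with a candidate in replicate 2 only, 8.59% with one in replicate 3 only and 9.29% with neither. The 3 kinds lacking a candidate thus lay together and members, which also had higher pooled signal, lay below them. Of the 10 classes of pooled signal, the weakest had the word in 10% of regions and the strongest in 2.23%. Among all pooled candidates below the threshold the share was 7.48%, and among distal regions overlapping an optimal peak 2.30%. The remaining words that were lower in members were CCAGCA (9.60% against 13.6%), AGGACC (3.19% against 5.68%) and CCAGGA (5.08% against 8.37%), each with an adjusted p of 0.034. CCAGGA and AGGACC overlap CAGGAC in letters: of the 107 members with CAGGAC, 41 also held CCAGGA and 30 held AGGACC, while 10 held CCAGCA.

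**Figure D4:**
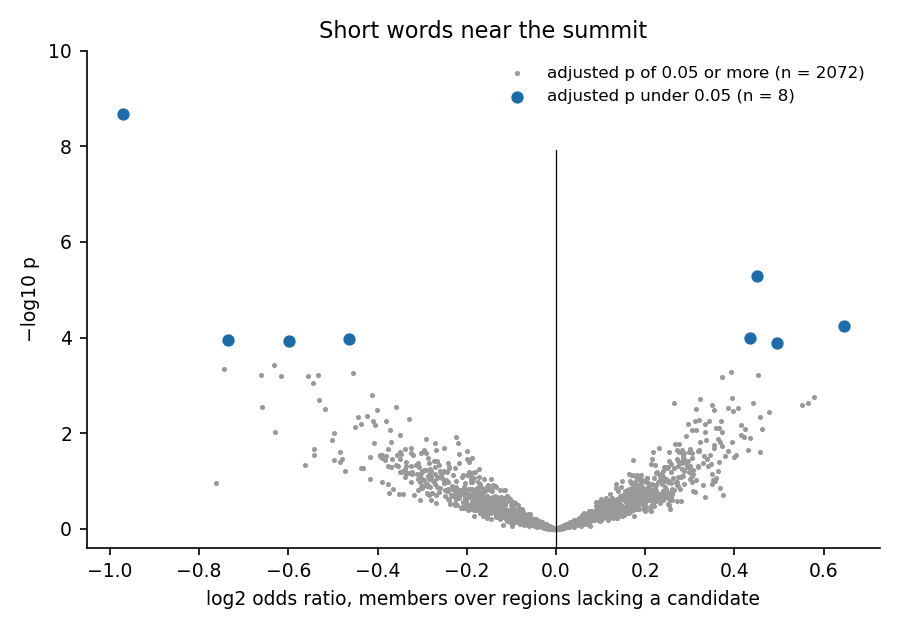
Each point is 1 of 2080 words of 6 bases within 100 bp of the summit: log2 odds ratio of members over distal regions lacking a candidate within 10 classes of GC content (x axis) and −log10 of the exact conditional p (y axis). The 8 words with an adjusted p under 0.05 are large points, 4 on each side of an odds ratio of 1, and the lowest odds ratio among them is 0.510.

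GAGAAA had the lowest p of the words that were higher in members. It was in 20.3% of members (interval 18.8 to 21.9%) and 14.9% of regions lacking a candidate (13.8 to 16.1%), an odds ratio of 1.37 (1.19 to 1.57, exact adjusted p = 0.0055). Its share was 13.9% in all pooled candidates below the threshold and 30.1% in distal regions overlapping an optimal peak. Among members it was spread evenly around the summit: 10.4% held it within 50 bp, 11.5% at 50 to 100 bp, 10.6% at 100 to 150 bp and 9.33% at 150 to 200 bp. The same bins held 7.89, 8.08, 8.61 and 8.16% of regions lacking a candidate. The share was higher in members in each bin, and in neither group was the word concentrated at the summit.

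The other higher words were less frequent. GTGCAC, a palindrome, was in 7.32% of members and 4.61% of regions lacking a candidate (odds ratio 1.56, interval 1.25 to 1.95, exact adjusted p = 0.034). CACTGA was in 14.8% and 10.9% (1.35, 1.16 to 1.58, exact test, adjusted p = 0.034), and TAGATA in 11.7% and 7.60% (1.41, 1.18 to 1.69, adjusted p = 0.034). GTGCAC and CACTGA were more frequent still in distal regions overlapping an optimal peak, at 11.9% and 20.5%, whereas TAGATA was in 11.1% there. The next words by p, AGAGAA on the higher side and AGGACT on the lower, did not pass, with an adjusted p of 0.078 each.

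Fewer words passed once pooled signal was also held in classes. Within 5 classes of GC content alone, 8 of 2080 words passed, as within 10. Within 5 classes of GC content crossed with 5 of pooled signal, 0 of 2080 words passed the exact conditional test and 120 had an unadjusted p under 0.05. CAGGAC had an odds ratio of 0.504 within the 5 GC classes and of 0.590 once crossed with signal (interval 0.447 to 0.773, exact test, adjusted p = 0.072), and GAGAAA one of 1.37 and 1.25. Without classes of GC content 72 words were higher and 52 lower. With membership defined by 1 replicate, 0 words passed for replicate 3 alone and 1 for replicate 2 alone, and the odds ratio of CAGGAC was 0.648 and 0.756. Against distal regions overlapping an optimal peak 0 of 2080 words passed (0%), while 178 had an unadjusted p under 0.05, and the lowest adjusted p was 0.062 for ACAGTG, in 10.6% of members and 19.2% of those regions.

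The nearest other member lay a median of 2759 bp away, and 1887 members (74.3%) had another within 10000 bp. Regions lacking a candidate, which are more numerous, had their nearest fellow at a median of 3582 bp, and 72.1% had one within 10000 bp. Of neighbouring members 316 pairs overlapped, as did 124 pairs of regions lacking a candidate. Chained at that distance, with overlapping members counted apart, members formed 98 chains of 5 or more. Regions lacking a candidate were not chained, so the chains have no background count. The longest, of 13 members over 31154 bp of chr3L, lay in intergenic sequence nearest to CG12362 and Or67d, an odorant receptor gene. Another chain of 11 members extended over 34909 bp next to vvl, which encodes a POU homeodomain protein of trachea and nervous system, and none of the distal candidates in that stretch overlapped an optimal peak. A chain of 9 members lay near Dr, the muscle segment homeobox gene.

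Accepted peaks lay closer to members than to the regions lacking a candidate, a distance that the rule constrains. The nearest optimal summit was a median of 17752 bp from a member and 27672 bp from a region lacking a candidate. Of the 1499 members inside a protein-coding gene, 56.6% were in a gene that also held an optimal peak, compared with 45.8% of 2267 regions lacking a candidate.

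A member lay in the body of 593 of 13986 protein-coding genes (4.24%), or of 3491 genes longer than 5000 bp (17.0%), and was nearest to the TSS of 1135 genes (8.12%). Of the 593 genes, 250 held 1 member and 81 held 5 or more. Because a gene must be long to hold a site over 5000 bp from a start, counts per gene follow length, and lists of genes are described here without a test.

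hth held the most members of any gene, 22 over 132008 bp. It encodes Homothorax, a homeodomain partner of the Hox proteins. Their pooled signals ran from 20.1 to 60.0, median 35.0, beside 23 regions lacking a candidate and 3 distal regions overlapping an optimal peak. The strongest, at position 10514487 of chr3R, had a signal of 20.5 in replicate 2 and 39.8 in replicate 3, and the next, at 10537389, had 36.4 and 23.5, so the replicates ordered these sites differently. The weakest of the 22 shared both its replicate candidates with a stronger member 200 bp away.

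jing, a zinc finger gene of trachea and midline glia, cv-c, and pum, which encodes the translational repressor Pumilio, held 14 members each, and luna, a Krüppel-like zinc finger gene, held 13. The strongest member was at 62.9 in jing, 62.5 in cv-c, 43.2 in pum and 56.5 in luna. luna held no optimal peak and no distal region overlapping one but 15 regions lacking a candidate. Per length, these 4 genes held 8.17 to 15.6 members per 100 kb, hth 16.7 and the shorter gene tara 26.0.

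**Figure D5:**
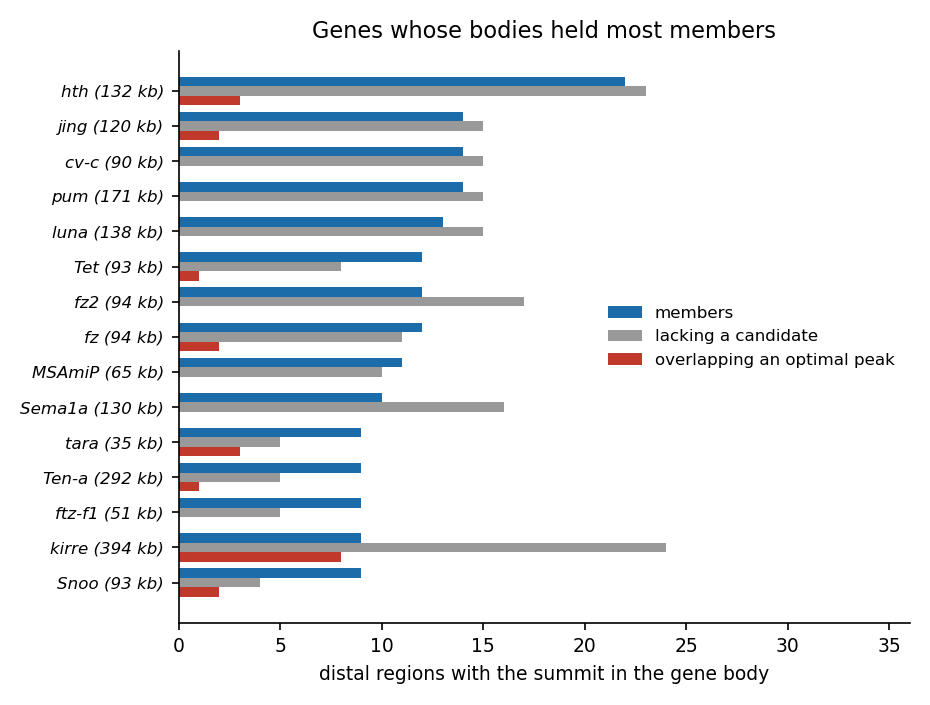
Number of distal regions with the summit in the gene body (x axis) for 15 of the genes with most members (y axis, with gene length), as members, regions lacking a candidate and regions overlapping an optimal peak. hth stands first with 22 members, 23 regions lacking a candidate and 3 overlapping an optimal peak.

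Among the patterning genes, 5 of the 8 Hox and related genes over 5000 bp held a member (against the background of 17.0%): Ubx held 7, the strongest at 61.7, pb 3 and Antp 2. Antp also held 9 regions lacking a candidate and 4 distal regions overlapping an optimal peak. Of the pair-rule and segment polarity genes 4 of 11 did, led by nkd and inv with 3 each, and of the gap genes 1 of 5, knrl. Other homeobox genes had members in 15 of 39, with ct, a homeodomain selector of external sense organs, at 6 and NK7.1 at 4.

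Nervous system lists varied. Axon guidance genes held members in 19 of 33, with Sema1a, a transmembrane semaphorin, at 10, sli, the midline repellent Slit, at 8 and Dscam1, an immunoglobulin-family receptor, at 7. sli had 3 regions lacking a candidate and Dscam1 had 1, while Sema1a had 16. Neuroblast and neuronal fate genes had members in 10 of 21, and channel and synapse genes in 12 of 33, with a median length of 54513 bp. In the last list Ten-a held 9 members and 5 regions lacking a candidate, and Ten-m 5 and 15. The glial list had a member in 1 of 12, pnt.

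Among the 17 lists the ecdysone response genes had the highest share of hosts. They held members in 12 of 13, with a median length of 60654 bp against 11407 bp for all genes over 5000 bp. The nuclear receptor genes ftz-f1, Hr4 and EcR held 9, 8 and 6. Hr4 had 8 members and 1 region lacking a candidate, beside 4 distal regions overlapping an optimal peak. In the EGFR pathway 9 of 18 held members, with the ETS effector pnt and the repressor cic at 8 each and S, needed for ligand processing, at 6.

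The Wingless and Hedgehog list held members in 9 of 21, with the Wingless receptors fz2 and fz at 12 each and the glypican dlp at 8. In the BMP pathway 6 of 11 did: the receptor tkv held 7 members and 1 region lacking a candidate, and the antagonist sog held 2, the stronger at 64.8. The Notch pathway had 6 of 12, with mam and N at 4 each and Delta at 3. Mesoderm and muscle genes had 8 of 25, led by kirre, a myoblast fusion receptor, with 9 members beside 24 regions lacking a candidate over 394149 bp. Tracheal genes had 4 of 8, led by bnl, the FGF ligand, with 5, gut genes 3 of 11, led by Fas3 with 4, and Polycomb group and GAGA factor genes 3 of 12, with psq and trx at 2 each. Over all genes, 39.7% of the distal regions below the threshold that lay in gene bodies were members. Over the lists the share ran from 16.7% in the gap list, with 1 member and 5 regions lacking a candidate, to 66.7% in the glial list, with 8 and 4. Those 8 and 4 were all in pnt, which is also in the EGFR list. These shares were not tested.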

How the data were processed

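The deposited files used were narrowPeak lists in dm6: the candidates of replicate 2, replicate 3 and the pooled replicates, and the optimal peaks that passed the irreproducible discovery rate step. The dm3 lists were used for 1 count. Per the file headers and README files, the authors made the candidate lists from alignments with a control file. Which aligner, caller and threshold the authors used is not stated in any source at hand. The peak signal value is as deposited by the authors, without a stated unit, and the summit offset is another deposited column, a distance in bp. Reads were not analysed and no list gives a read count, so depth is unknown.

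All dm6 coordinates lay within the Release 6 chromosome lengths, and the annotation was Ensembl 115 (BDGP 6.54). Features were compared by Fisher's exact test, and words within 100 bp of the summit by an exact conditional test of a common odds ratio over 10 classes of GC content (R 4.3.3, Python 3.11.15, pandas 2.3.3, scipy 1.17.1), all two-sided, with Benjamini-Hochberg adjustment within each family and a threshold of 0.05. The tests were tested on simulated data first. Regions are not replicates of a condition: p-values measure how regions divide, and some regions overlap.

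The members, gene lists and words were chosen with earlier results of these data known. Named genes are those of the 10 strongest members, the 5 genes with most members, up to 3 per gene list with most members, and the regions beside each limit. Only some of the 22 chosen words are named. Of the words of 6 bases, those named are the 5 of lowest p in each direction against regions lacking a candidate. ACAGTG is named from the comparison with optimal peaks. Other names (such as the genes of the chains, the bithorax complex, ties and genes set beside a list leader) were chosen after their values were seen. Of the gene list names, 6 matched no coding gene of the annotation. Alternatives were other distances, overlaps, windows and classes, 1 replicate left out, and main arms only. Those added after seeing the data were the strongest of overlapping regions, classes of GC content with signal for the words of 6 bases, optimal peaks themselves, and the settings applied to the comparison with distal optimal peaks and to the words of 6 bases.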

Additional observations from a re-analysis of the deposited data

How the results depend on the processing

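The number of members, 2541, was 4134 with the TSS more than 2000 bp away, 1283 with more than 10000 bp, 1069 with the strongest 15000 candidates of each replicate, and 4168 to 4170 without one replicate. The share with a candidate in both replicates, 40.4%, was 32.5% with an overlap of at least 50% of both regions, 17.0% with the strongest 15000, 38.0% with the strongest of overlapping regions and 66.2 to 66.3% without one replicate. Without the TSS and coding steps, 12603 of 27394 dm6 regions and 12512 of 26835 dm3 regions below the threshold had both candidates.

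Against regions lacking a candidate, 2 features passed; 4 did with the strongest 15000, 0 within signal classes (exact conditional test, lowest adjusted p = 0.45, and 0 at an unadjusted p under 0.05) and 0 to 1 without one replicate. Of the fixed words 0 passed; 2 did with the TSS more than 2000 bp away, 3 on the main arms, 2 with the strongest of overlapping regions and 1 without GC classes. Of the words of 6 bases 8 passed; 28 did with more than 2000 bp, 1 with more than 10000 bp, 1 with the strongest 15000, 2 with no optimal peak within 2000 bp, 124 without GC classes, 0 within GC and signal classes and 0 to 1 without one replicate. Over its 12 alternatives CAGGAC had odds ratios of 0.418 to 0.756 and passed in 9.

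Against distal regions overlapping an optimal peak, 1 feature passed; 8 did with more than 2000 bp, 2 on the main arms and 1 to 4 without one replicate. Of the fixed words 0 passed, and 1 did within 200 bp. Of the words of 6 bases 0 passed; 13 did with more than 2000 bp, 119 without GC classes and 6 to 8 without one replicate. The features and words that passed as reported, with low GC content, masked bases and the 8 words against regions lacking a candidate and low GC content against optimal peaks, kept their direction in the alternatives run. Some that passed only under an alternative did not: the odds ratio ran from 0.936 to 1.26 for the X chromosome against regions lacking a candidate and from 0.592 to 2.35 for UTRs against optimal peaks. The causes of these shifts were not tested. No paired analysis was possible because there is 1 group. With 2 replicates, unknown depth and no untagged line analysed here, the data do not show which members would recur in further embryos.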
